A study of Mus musculus with 10 samples.

Results

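The 6 genes followed here belong to the natural killer (NK) gene complex: BC035044, Clec2d, Cd69, Clec7a, Klrd1 and Klri1, 6 of the 17658 genes tabulated. They were chosen by name, with their level, their change with anti-IgM and their difference between genotypes already known, and because they lie in one chromosomal region. Those values are therefore given as descriptions. Where the fit over all genes also called these genes, the calls are given without p-values, as counts and with how far they held. They support nothing. B cells were enriched magnetically, by negative selection, from spleen and lymph nodes of C57BL/6 mice aged 10 weeks. The mice were wild type or homozygous for a knockout allele (Nr4a1-/-) of Nr4a1, an orphan nuclear receptor gene induced by the B cell antigen receptor. The cells were left unstimulated (1 library per genotype, lettered A) or received 10 µg/mL anti-IgM for 2 h, which engages surface antigen receptors (4 libraries in each genotype, A through D). Whether letters denote separate mice is not stated, so the spread between libraries may be technical, and the knockout is not described as restricted to B cells.

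The NK complex encodes C-type lectin-like receptors and their ligands, which cytotoxic lymphocytes use to sense whether a neighbouring cell is healthy, infected or stressed. Receptors of the Klrb1 and Klr families pair with ligands that are partly encoded beside them, such as the Clec2 proteins. In B cells the best known product of the complex is CD69, an early surface marker of activation that holds back the sphingosine-1-phosphate receptor S1PR1 and thereby keeps the cell in the lymphoid organ.

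Levels are FPKM, transcript abundance scaled to gene length and to library size, as the authors deposited them, and are thus per length. Log2 changes are on the log2(FPKM + 1) scale, which understates changes of genes near 1 FPKM. The summed FPKM was between 557214 and 571784 in the stimulated libraries, 674961 in the unstimulated wild-type library and 595500 in the unstimulated one labelled knockout, and the depth in reads is unknown. Nr4a1 itself was listed at 126 FPKM in both unstimulated libraries, at 744 to 856 FPKM in the stimulated wild-type libraries and at 660.2 to 759.96 FPKM in those labelled knockout. It did not separate the labels, so each direction below is between libraries as labelled. The 8 B cell markers, among them Ms4a1, Cd79a, Cd79b and Pax5, were all expressed, with a sum of 1640 to 1712 FPKM in stimulated wild-type libraries and 1598 to 1713 FPKM in stimulated libraries labelled knockout, against 4358 and 4149 FPKM unstimulated. Of the 8, 6 were called lower with anti-IgM, and Cd79b (-0.32, limma adjusted p = 0.00054) and Cr2 (-0.52, limma adjusted p = 0.000273) were called lower between genotypes after it.

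The 6 genes lie on chromosome 6 of GRCm38, the assembly that mm10 denotes, within 873 kb. In RefSeq order they are BC035044 (chr6:128848044-128891124, minus strand), Clec2d (chr6:129180615-129186535, plus strand) and Cd69 (chr6:129267324-129275375, minus strand). These are followed by Clec7a (chr6:129461591-129472785, minus strand), Klrd1 (chr6:129588092-129598775, plus strand) and Klri1 (chr6:129696118-129720610, minus strand). The closest pair is Clec2d and Cd69, 80.8 kb apart, and the widest gap, 289 kb, separates BC035044 from Clec2d. Clec2i, on the opposite strand, overlaps the 5′ end of BC035044 by 3538 bases. No run of 50 bases in the GENCODE M21 transcripts of BC035044 occurs on either strand of another gene's transcripts. Of the 50-base runs of Clec2d, 1.98% also occur in Clec2g or Clec2i, and of those of Klri1, 5.83% occur in Klri2, so the values of these 2 genes carry that uncertainty.

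Promoters are shown for the pair of genes that were lower in the same libraries at moderate or high level, Clec2d and BC035044. Each window runs from 250 bases before to 50 bases after the RefSeq start (GRCm38.p6) and is written 5′ to 3′ on the strand of the gene. Capitals mark a match to 1 of 4 motifs searched on both strands: the NBRE element AAAGGTCA, which NR4A receptors bind, the AP-1 element TGANTCA, the Egr element GCGTGGGCG and the kappa B element GGGANTTTC.
BC035044, chr6:128891075-128891374, minus strand: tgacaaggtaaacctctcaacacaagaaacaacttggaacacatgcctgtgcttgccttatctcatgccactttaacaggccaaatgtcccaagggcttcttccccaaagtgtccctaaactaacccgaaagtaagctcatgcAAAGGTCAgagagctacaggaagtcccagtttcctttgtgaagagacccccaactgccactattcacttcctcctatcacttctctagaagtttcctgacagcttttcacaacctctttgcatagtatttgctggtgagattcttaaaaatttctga
Clec2d, chr6:129180365-129180664, plus strand: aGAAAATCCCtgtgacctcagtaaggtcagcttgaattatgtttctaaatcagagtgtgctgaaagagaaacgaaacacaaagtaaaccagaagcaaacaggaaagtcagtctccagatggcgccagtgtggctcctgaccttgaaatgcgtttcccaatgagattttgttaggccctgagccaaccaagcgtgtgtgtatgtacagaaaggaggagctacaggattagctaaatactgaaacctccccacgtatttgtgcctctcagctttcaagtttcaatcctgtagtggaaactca
The BC035044 window holds 1 NBRE match, from base -107 to base -100 relative to the start, on the strand of the gene, and lies wholly inside the annotated Clec2i gene. The Clec2d window holds 1 kappa B match on the opposite strand, printed as GAAAATCCC, from base -249 to base -241. The motifs do not overlap each other there. Among 27025 promoters of the same length, 1 per gene, 1.46% hold the NBRE letters, 1.15% the kappa B letters, 7.93% the AP-1 letters and 0.625% the Egr letters. The windows of Clec7a and Klri1 hold none of the 4. Promoters of Cd69 and Klrd1 were not searched. A match describes letters in a window, not a bound site.

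After anti-IgM, 5 of the 6 genes had a lower mean in the knockout-labelled libraries than in wild type, and Cd69, lying between them, had a higher one. The 5 lower genes held from 40.0% (Klri1) to 63.5% (Clec2d) of the wild-type FPKM, and Cd69 held 138%. In wild type after anti-IgM the order of mean FPKM was Cd69, Clec2d, BC035044, Clec7a, Klri1 and Klrd1. Neighbours in that order differed by more than their SDs except Klri1 and Klrd1. The order was the same in the knockout-labelled libraries, where the last pair again lay within their SDs.

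**Figure D1:**
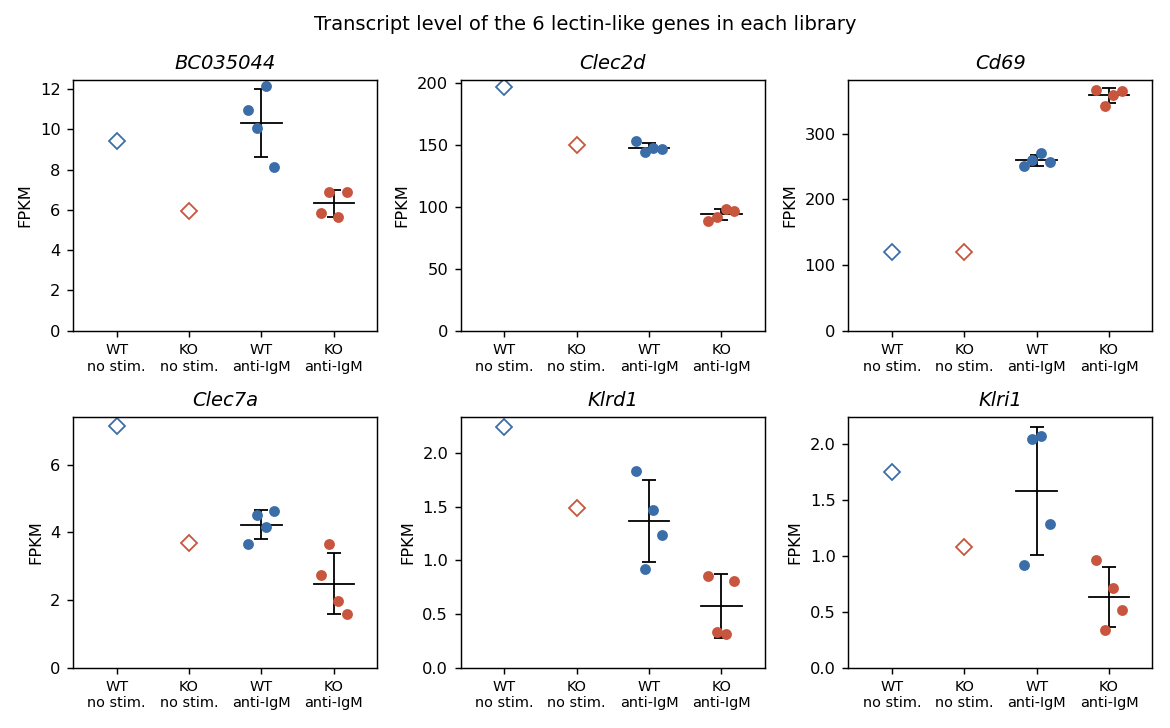
FPKM of the 6 genes in every library, with open diamonds for the single unstimulated libraries, filled circles for stimulated libraries A to D and black lines for their mean and SD (n = 4). Cd69 in the knockout-labelled libraries sits at 342 to 367 FPKM, above all 4 wild-type values, while Clec2d sits at 88.3 to 98.6 FPKM, below all 4.

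Clec2d encodes Clr-b, a ligand that is widely displayed on blood cells and is recognised by the inhibitory NK receptor Klrb1b. Its level after anti-IgM in wild type (A, B, C, D) was 153, 144, 147 and 146 FPKM. The knockout-labelled libraries held 88.3, 92.1, 98.6 and 96.35 FPKM. All 4 lay below all 4 wild-type libraries, with a gap of 45.6 FPKM between the nearest values, and the groups were tight. Means were 148 ± 3.91 and 93.8 ± 4.57 FPKM (SD, n = 4 each), a log2 difference of -0.65. Before stimulation the wild-type library held 197 FPKM and the other 150.3 FPKM, a log2 difference of -0.39. This unstimulated difference was -0.21 when rescaled to TPM (each library to the same sum) and -0.43 with median-of-ratios scaling. Clec2d was thus lower after anti-IgM in both genotypes, at 75.0% of the unstimulated level in wild type and 62.4% in the knockout-labelled libraries.

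BC035044 is a protein-coding gene of the same end of the complex. Across wild-type A, B, C and D it stood at 10.97, 10.1, 12.1 and 8.11 FPKM after anti-IgM. In those labelled knockout it stood at 5.84, 6.89, 5.65 and 6.90 FPKM. The groups did not overlap, although wild-type library D came within 1.21 FPKM of the highest value of the other genotype. The means of 10.3 ± 1.70 and 6.32 ± 0.668 FPKM (SD, n = 4 each) gave a log2 difference of -0.62. Without stimulation the 2 libraries already stood apart by a similar amount, at 9.44 and 5.95 FPKM (log2 difference -0.59). On deposited FPKM anti-IgM left it within the spread of the stimulated libraries: the log2 change was 0.10 in wild type and 0.070 in the knockout-labelled libraries. With TPM, median-of-ratios or quantile scaling it rose, by 0.23 to 0.345 in wild type and by 0.14 to 0.50 in the knockout-labelled libraries. The log2 SDs of the stimulated libraries on deposited FPKM were 0.22 and 0.13.

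Before stimulation Cd69 was at 120.2 FPKM (wild type) and 119.9 FPKM (labelled knockout). After anti-IgM, wild-type A, B, C and D held 251, 259, 271 and 257 FPKM. The knockout-labelled libraries held 367, 342, 359 and 364 FPKM. Every stimulated library was above its unstimulated counterpart, and the 2 genotypes were separated by 70.9 FPKM. Means were 259.8 ± 8.36 and 358 ± 11.2 FPKM (SD, n = 4 each), a log2 difference of 0.46. The level after anti-IgM was 2.16 times the unstimulated one in wild type and 2.99 times in the knockout-labelled libraries, log2 changes of 1.10 and 1.57. Cd69 was the gene of the 6 whose genotypes differed after stimulation and were level before it on the deposited scale; rescaled to TPM (each library to the same sum) the unstimulated difference was 0.18.

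Clec7a encodes dectin-1, a receptor for fungal beta-glucan that signals through Syk and Card9 and is best known from myeloid cells. With anti-IgM the wild-type libraries held 3.65, 4.51, 4.15 and 4.62 FPKM. The knockout-labelled libraries held 2.73, 3.65, 1.96 and 1.60 FPKM. The groups touched: library B labelled knockout and wild-type library A had the same value. Means were 4.23 ± 0.437 and 2.48 ± 0.909 FPKM (SD, n = 4 each), a log2 difference of -0.62. In the unstimulated libraries the values were 7.14 and 3.68 FPKM (log2 difference -0.80), and every stimulated library was below its unstimulated counterpart.

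Because dectin-1 marks myeloid cells, 15 myeloid markers were set beside it. Of these 14 were listed, none at 0 in all libraries, with Lyz2 the most abundant. Their summed FPKM was 104 and 130.4 in the unstimulated libraries of wild type and labelled knockout. It was 64.7, 169, 59.3 and 65.2 across wild-type A, B, C and D after anti-IgM, and 94.4, 129.8, 43.9 and 48.4 in those labelled knockout. The sum was highest in library B of each genotype. Library B had the most Clec7a in the knockout-labelled group but not in wild type, where library D had more, and knockout-labelled library A, with the third highest sum of the 8, held less Clec7a than every wild-type library. Of the 10 myeloid markers tested, limma called 0 between genotypes and 1 had an unadjusted p under 0.05. The lowest adjusted p was that of Csf1r (log2 difference -0.40, limma adjusted p = 0.0962), which was lower in the knockout-labelled libraries, as Clec7a was. The median log2 difference of the 10 was -0.17, and only Itgam (0.071) and Mpeg1 (0.14) were higher. In these bulk samples fewer cells of a type and less RNA per cell cannot be told apart, and the part of residual myeloid cells in Clec7a was not tested.

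Klrd1 encodes CD94, which pairs with NKG2 chains (Klrc genes) into receptors for the non-classical class I molecule Qa-1. Wild-type A, B, C and D held 1.83, 0.92, 1.47 and 1.24 FPKM after anti-IgM. The knockout-labelled libraries held 0.85, 0.33, 0.31 and 0.81 FPKM. The groups did not overlap, but the nearest values were 0.070 FPKM apart. Means were 1.36 ± 0.383 and 0.575 ± 0.295 FPKM (SD, n = 4 each), or 42.1% of wild type, a log2 difference of -0.59. Unstimulated, the libraries held 2.24 and 1.49 FPKM.

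Klri1 encodes a chain that pairs with Klre1 in an NK cell receptor. Its values after anti-IgM were 0.92, 2.05, 2.07 and 1.29 FPKM in wild-type A, B, C and D. They were 0.96, 0.34, 0.71 and 0.52 FPKM in those labelled knockout. Wild-type library A lay just below library A labelled knockout, so the groups overlapped by that pair. Means were 1.58 ± 0.572 and 0.632 ± 0.266 FPKM (SD, n = 4 each), a log2 difference of -0.65. The unstimulated values were 1.75 and 1.08 FPKM. Summed with Klri2, which shares sequence with it, the values were 1.10 to 2.39 FPKM in wild type and 0.44 to 1.03 FPKM in the knockout-labelled libraries.

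Klrd1 and Klri1 are NK cell genes, and of 13 NK cell markers 12 were listed and 10 of those had a mean under 1 FPKM. The summed list was 53.6 to 93.6 FPKM in stimulated wild-type libraries and 44.9 to 60.96 FPKM in those labelled knockout, nearly all of it Ccl5, a chemokine not limited to NK cells. Without Ccl5 the sum was 2.17 to 3.20 and 2.31 to 2.82 FPKM, with Prf1 the most abundant gene in it. Eomes was listed at 0 in 4 and Gzma in 3 of the 4 stimulated libraries labelled knockout, against 0 of 4 in wild type for both genes; the highest wild-type values were 0.050 and 0.19 FPKM. Klrg1 and Prf1 went the other way, with means of 0.0375 and 1.24 FPKM in wild type and 0.185 and 1.38 FPKM in the knockout-labelled libraries. They were the only listed markers with a higher mean there. Ccl5, Klrk1, Klrb1c, Klre1, Gzmb, Nkg7, Itga2 and Txk had a lower one, all but Ccl5 under 1 FPKM. Of these, Klrk1 did not overlap between groups (means 0.43 and 0.2025 FPKM). The share of all genes under 1 FPKM that do not overlap was not counted. Klre1, the partner of Klri1, was listed at 0 in 2 of 4 stimulated wild-type libraries and 3 of 4 labelled knockout. Of the T cell list, 9 of 10 genes had a mean under 1 FPKM, and its sum of 8.13 to 9.43 FPKM in stimulated wild-type libraries and 9.59 to 10.8 FPKM in those labelled knockout was mostly Cd5, which B cells can also express. Without Cd5 the sums were 1.43 to 1.80 and 1.05 to 1.69 FPKM. The part of residual NK cells in the levels of Klrd1 and Klri1 was not tested.

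The minimum for testing with limma was an average of 1 FPKM across the 10 libraries, which 10225 genes reached, and all 6 genes passed. Klrd1 and Klri1, with means of 1.15 and 1.17 FPKM, were under 1 FPKM in all 4 stimulated libraries labelled knockout and passed through the other libraries, so their difference is partly built into that choice. Between genotypes after anti-IgM, 9.72% of tested genes were called at an adjusted p under 0.05, 5.81% lower and 3.91% higher in the knockout-labelled libraries. Of these calls 40.2% were higher on deposited FPKM, 44.2% on TPM, 52.2% after quantile normalization and 57.2% with median-of-ratios scaling. All 6 genes were among the called ones, 5 lower and 1 higher; they were selected on this difference, so the count is no evidence for it. The groups did not overlap for 3 lower genes and 1 higher gene of the 6, against 9.57% and 5.96% of tested genes. As a limit, the calls of Clec7a, Klrd1 and Klri1 held in only 5 of 17 alternatives each; when 1 stimulated library was left out they held in 1, 2 and 2 of 8 fits. Without wild-type library C or D, or without library C or D labelled knockout, 3 of the 6 genes were called.

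The response to anti-IgM split the genes. Cd69 was the only one of the 6 past a log2 change of 1 in the fit over all genes, where 7.94% of tested genes were called higher and 12.4% lower. Of those calls 39.1% were higher on deposited FPKM and 50.7% to 53.8% under the other scalings. Clec2d, Clec7a and Klrd1 were below the unstimulated library in every stimulated library of the same genotype on deposited FPKM. Under the other scalings the log2 change of Clec7a went from -0.52 to -0.32 in wild type and from -0.46 to -0.0048 in the knockout-labelled libraries, and that of Klrd1 from -0.38 to -0.10 and from -0.83 to -0.37. For BC035044 on deposited FPKM, 3 of 4 stimulated wild-type libraries and 2 of 4 labelled knockout were above the unstimulated one, and for Klri1, 2 of 4 and 0 of 4. Across all tested genes the median log2 change was -0.17 in deposited FPKM and between -0.031 and 0.0043 under the other scalings, so small falls are to be read against that shift. Clec2d kept lower values in both genotypes under the 3 other scalings, with log2 changes from -0.59 to -0.16 in wild type and from -0.92 to -0.46 in the knockout-labelled libraries. For Klri1 in wild type the sign changed with the scaling, from -0.12 on deposited FPKM to 0.23 after quantile normalization.

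**Figure D2:**
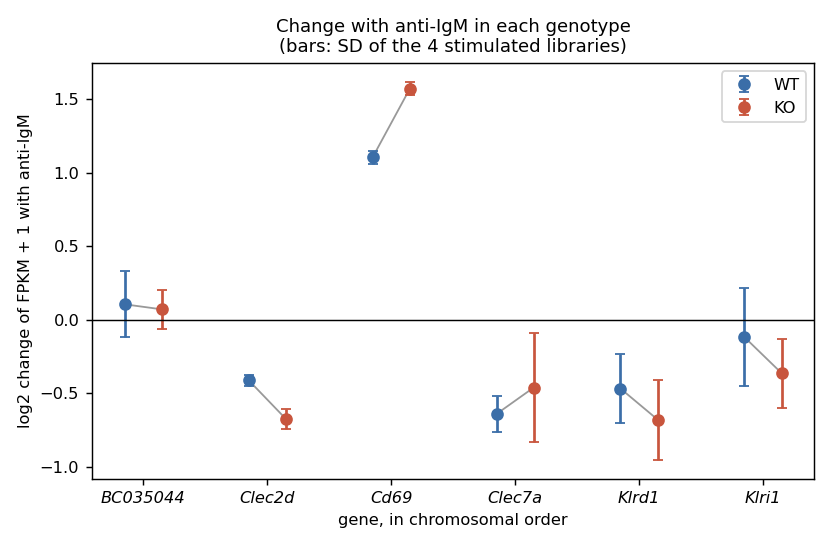
Log2 change of FPKM + 1 with anti-IgM for each gene, in wild type (blue) and in libraries labelled knockout (red), as the mean of the 4 stimulated libraries minus the single unstimulated one; bars are the SD of the stimulated libraries and leave out the unknown error of the unstimulated library. Cd69 stands at 1.10 and 1.57, and the other genes lie between -0.68 and 0.10.

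The difference between the genotypes in this response is a description, since the genes were selected on both measures and each response rests on 1 unstimulated library. For Cd69 the log2 change was larger by 0.47 in the knockout-labelled libraries, and larger by 0.29 to 0.55 under the other scalings. For Clec2d it was lower by 0.26 (log2 -0.68 against -0.41), with differences from -0.44 to -0.18 under the other scalings. The difference was -0.21 for Klrd1 (-0.47 to -0.19 under the other scalings, -0.63 with a pseudocount of 0.1) and -0.25 for Klri1 (-0.47 to -0.23, and -0.56). It was 0.18 for Clec7a and -0.034 for BC035044, and both of these changed sign with the scaling.

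The neighbours of these genes were then examined in chromosomal order. The region from 1 Mb before BC035044 to 1 Mb after Klri1 holds 112 RefSeq genes, of which 49 besides the 6 were in the table and 12 passed the minimum of 1 FPKM. Among these 12, limma called 2 lower between genotypes and 0 higher, against 5.81% and 3.91% of all tested genes. An unadjusted limma p under 0.05 was found for 5 of the 12. The median log2 difference of the 12 was -0.089 against -0.024 for all tested genes. The first of the called genes was 2310001H17Rik, a long non-coding RNA gene annotated between Clec2d and Cd69. After anti-IgM its wild-type values were 9.18, 9.15, 9.67 and 9.91 FPKM, and 6.12, 7, 7.06 and 5.66 FPKM those labelled knockout; the log2 difference was -0.49 (SE 0.068; adjusted p = 0.00153 by limma). The 4 and 4 libraries did not overlap, and the unstimulated pair, at 15.6 and 10.98 FPKM, differed in the same direction. The second was Gabarapl1, an autophagy gene of the Atg8 family between Clec7a and Klrd1, at 21.3 ± 0.900 and 17.9 ± 1.22 FPKM (SD, n = 4 each), with a log2 difference of -0.25 (SE 0.051, limma adjusted p = 0.0147). Its unstimulated values were 10.9 and 10.98 FPKM. Both calls held in every alternative that tested them.

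Clec2i, a second Clec2 ligand gene, lies next to BC035044 and was the most abundant lectin-like gene of the region after Cd69 and Clec2d. After anti-IgM it stood at 60.9, 58.1, 54.7 and 53.8 FPKM in wild type and 58.6, 54.8, 55.1 and 56.99 FPKM in those labelled knockout. The groups overlapped, and the log2 difference was -0.011 (SE 0.042, limma adjusted p = 0.912). Clec2i was 95.3 and 78.7 FPKM in the unstimulated pair. Clec12a, an inhibitory myeloid receptor gene between Cd69 and Clec7a, was the neighbour that stood higher without overlap, at 2.45 ± 0.290 and 3.06 ± 0.130 FPKM (SD, n = 4 each; log2 difference 0.24, limma adjusted p = 0.0732). It was called without wild-type library D (log2 difference 0.29), and also after quantile normalization (0.30) and with eBayes without trend.

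**Figure D3:**
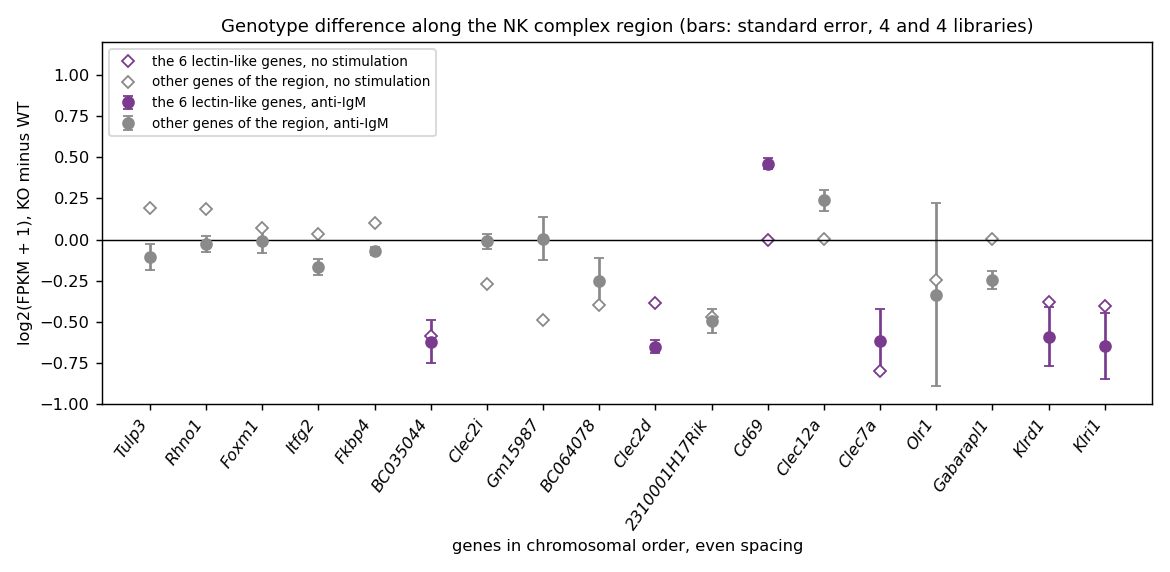
Log2 difference between genotypes (labelled knockout minus wild type, FPKM + 1) for the 18 tested genes of the region in chromosomal order; filled circles with standard error bars are stimulated libraries (4 and 4), open diamonds the unstimulated pair. Filled circles of BC035044, Clec2d, 2310001H17Rik, Clec7a, Klrd1 and Klri1 lie at -0.49 or lower, Cd69 lies at 0.46, and the 5 genes before BC035044 lie between -0.17 and -0.0088.

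The 5 tested neighbours before BC035044, Tulp3, Rhno1, Foxm1, Itfg2 and Fkbp4, were not called between genotypes (limma adjusted p of 0.0863 or more). Itfg2 had the largest difference of them, -0.17, and was called without library B labelled knockout (-0.20). Itfg2 and Fkbp4 were lower without overlap after anti-IgM, Fkbp4 at 84.1 to 90.9 FPKM against 91.5 to 92.5 FPKM in wild type. Among the 12 neighbours, 4 were lower and 1 higher without overlap, against 9.57% and 5.96% of all tested genes. The non-coding RNA genes Gm15987 and BC064078, between Clec2i and Clec2d, did not pass between genotypes (0.0059 and -0.25, limma adjusted p = 0.985 and 0.289). Both fell with anti-IgM, with log2 changes of -2.26 and -1.78 (SE 0.141 and 0.138, limma adjusted p = 5.60e-08 and 3.38e-07). They were the 2 neighbours of 12 called with stimulation, against 12.4% of all tested genes called lower and 7.94% higher. With a pseudocount of 5 the change of BC064078 was -0.87, short of a call. Gm15987 was at 26.5 and 18.6 FPKM before and 3.88 ± 0.729 and 3.89 ± 0.547 FPKM after (SD, n = 4 each). Olr1, the oxidised LDL receptor gene beside Clec7a, spread too widely for a comparison (log2 difference -0.34, SE 0.452). Of the 12 neighbours, 10 had a lower mean log2 value in the stimulated libraries labelled knockout, against 61.1% of all tested genes, and 5 were lower in the unstimulated pair, against 40.4%.

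The other 37 listed genes of the region were below the minimum, and 27 of them carry Klr or Clec names. No value of these 27 exceeded 2.67 FPKM, which was Clec1b in the unstimulated wild-type library. Of the 27, 20 had a lower mean in the stimulated libraries labelled knockout, 6 a higher and 1 an equal one. Some of these means rest on 1 stimulated library above 0, as for Klra4 (0.22 FPKM in wild-type library B) and Klrb1 (0.1 FPKM in wild-type library D). The count was not set against other genes below the minimum, so it shows no trend of the region. Klrk1, the gene of the activating receptor NKG2D, was listed at 0.35, 0.33, 0.47 and 0.57 FPKM in wild type and 0.17, 0.23, 0.15 and 0.26 FPKM in the knockout-labelled libraries. Klri2 was listed at 0.18, 0.16, 0.32 and 0.15 FPKM and 0.07, 0.1, 0.06 and 0.02 FPKM. Klrk1 and Klri2 did not overlap between groups, nor did Klrb1a, at 0.04 to 0.19 FPKM in wild type and 0 in all 4 stimulated libraries labelled knockout. Among tested genes, 9.57% were lower in the knockout-labelled libraries without overlap. That share was not counted for genes below the minimum, so the non-overlap of these genes shows no trend of the region. Klrb1b, the receptor for Clec2d, stayed between 0.02 and 0.35 FPKM in all libraries.

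The wider lectin family was described from a list of every Klr and Clec row and 16 other C-type lectin genes, the 6 left out. Of 70 names 68 were listed and 12 passed the minimum. Between genotypes 1 was called, higher: Cd72, an inhibitory B cell coreceptor, at 718 ± 17.5 and 794 ± 6.80 FPKM (SD, n = 4 each), with a log2 difference of 0.15 (SE 0.023, limma adjusted p = 0.00381). With anti-IgM, Cd72 rose (1.04), and Cd93 was among the genes that fell (-1.03). Cd72 was short of the size needed for a call without the unstimulated library labelled knockout (0.99) and after quantile normalization (0.90), and Cd93 in 5 alternatives (-0.98 to -0.71). Fcer2a, the low-affinity IgE receptor CD23, was at 228.5 ± 11.3 and 249 ± 2.28 FPKM (limma adjusted p = 0.0513 between genotypes, n = 4 each). The medians of the 12 were -0.15 between genotypes and -0.31 with anti-IgM.

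Partners of the 6 genes were counted from lists. The counts of every list are to be read against all tested genes. Of those, 5.81% were called lower and 3.91% higher between genotypes, and 12.4% and 7.94% with anti-IgM. Of 14 receptors, partners and adaptors of Clec2d, CD94 and Klri1, 13 were listed and 5 passed the minimum. Limma called 0 of the 5 between genotypes (0 with an unadjusted p under 0.05) and 0 with anti-IgM at the size required (4 with an unadjusted p under 0.05). The most abundant, H2-T23, which encodes Qa-1, was at 132 ± 3.83 and 128 ± 4.52 FPKM, and the phosphatase gene Ptpn6 at 118 ± 4.80 and 119 ± 5.61 FPKM (SD, n = 4 each). In the dectin-1 pathway list 15 of 17 genes were tested; 3 were called higher in the knockout-labelled libraries, Vav1 (0.37), Malt1 (0.37) and Nfkb1 (0.21), with limma adjusted p of 0.00139 at most. With anti-IgM, Syk fell (-2.22), and Rel and Nfkb1 rose (1.46 and 1.53; limma adjusted p of 3.93e-10 at most for the 3).

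The list for CD69 and lymphocyte egress held 15 genes, 14 of them tested. Between genotypes S1pr3 (0.52) and Gpr183 (0.18) were called higher and Cxcr4 (-0.58) and Ccr7 (-0.21) lower, with limma adjusted p from 5.55e-06 for Cxcr4 to 0.00964 for Ccr7. The call of Ccr7 was lost with median-of-ratios scaling (-0.18) and that of Gpr183 with quantile normalization (0.12). S1pr1, the receptor that CD69 restrains, did not pass between genotypes, at 65.7 ± 2.82 and 62.8 ± 2.31 FPKM (SD, n = 4 each; log2 difference -0.065, limma adjusted p = 0.354). The genes that fell with anti-IgM included S1pr1 (-1.16), S1pr4 (-2.62), the transcription factor gene Klf2 (-2.84) and Gnai2 (-1.27), while S1pr3 and Gpr183 rose (2.50 and 1.82). S1pr1 was short of the size needed for a call without the unstimulated library labelled knockout (-0.93) and with median-of-ratios scaling (-0.98).

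The genes with the most similar profile over the 10 libraries were found by the root-mean-square (RMS) difference of centred log2 values among 9209 tested genes with ordinary names. For Cd69 they were Ildr1 (RMS difference 0.073), Plscr1 (0.082) and Cmtm8 (0.094), against an SD of 0.61 for the Cd69 profile. Ildr1 went from 4.18 and 4.51 FPKM to 9.62 ± 0.700 and 13.7 ± 0.335 FPKM (SD, n = 4 each). For Clec2d the closest was the chemokine receptor gene Cxcr4 (RMS difference 0.10), at 853 and 768 FPKM before and 729 ± 20.8 and 487 ± 14.4 FPKM after anti-IgM (SD, n = 4 each), followed by Csrp1 (0.13) and Thap6 (0.13). BC035044 was closest to Arhgap39 (0.16), Sec11a (0.16) and Slc39a10 (0.17), and Clec7a to Srxn1 (0.15), Anxa3 (0.17) and Anxa2 (0.19). Klrd1 was closest to Atp1b1 (0.17), Tubb1 (0.19) and Rb1 (0.21), and Klri1 to Tgm2 (0.18), Pmaip1 (0.20) and Tubb2a (0.22). Among the 6, the closest pair was Clec2d and Klrd1 (RMS difference 0.20), and every pair with Cd69 differed by 0.72 or more. The closeness of Clec2d and Klrd1 is limited to the pseudocount of 1, since Klrd1 lies near 1 FPKM. With a pseudocount of 0.1 their log2 differences between genotypes after anti-IgM were -0.66 and -1.19.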

How the data were processed

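RNA from magnetically enriched mouse B cells was sequenced in 10 libraries (stranded mRNA kit, per the labels' protocols). The authors deposited 1 table of FPKM per gene and library, with 2 decimals, 17658 genes; STAR 2.4, RSEM 1.2.14 and the mm10 build are named in the submitters' processing notes, while the annotation and any filter or strand setting are not given in the sources used here. FPKM carry no counts, so no count model was used, and RSEM divides reads that fit several genes.

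Genes averaging 1 FPKM or more were tested on log2(FPKM + 1) with limma 3.58.1 (R 4.3.3; lmFit, eBayes with trend), two-sided, with Benjamini-Hochberg adjustment over all 10225 tested genes. Genotypes were compared over the 8 stimulated libraries (called at an adjusted p under 0.05). The anti-IgM response was fitted across the 10 libraries, adjusting for genotype (called also at an absolute log2 change of 1 or more). The fits were tested on simulated data.

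The 6 genes and all lists were chosen with earlier results of these data known. Other genes named are all tested neighbours within 1 Mb, list genes that were called or most abundant, and the 3 nearest profiles per gene; a few list genes are not reported here. Positions, neighbours and promoters came from RefSeq on GRCm38.p6, strands and transcripts from GENCODE M21; promoters matched 4 of the 6. Alternatives changed the pseudocount, minimum, scaling, eBayes options, libraries and region width, and used the letter as a block.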

Additional observations from a re-analysis of the deposited data

Results flagged for a closer look

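In 36 groups of 4 stimulated libraries (the 6 genes and their 12 tested neighbours, by genotype), 1 group had a library apart from its other 3. Olr1 was at 5.17 FPKM in wild-type library B, where the others held 0.87 to 1.58 FPKM. Chance flags about 1 in 20 groups, or 1.80 here. The same library had the highest sum of myeloid markers, 169 FPKM; the part of myeloid cells in this value was not tested.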

How the results depend on the processing

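The log2 differences between genotypes after anti-IgM kept their sign for all 6 genes in 13 of 13 alternatives each. Under other scalings they ranged from -0.66 to -0.62 for Clec2d, -0.65 to -0.55 for BC035044 and 0.43 to 0.497 for Cd69; with a pseudocount of 0.1 Klrd1 reached -1.19 and Klri1 -1.21, and with 5 they were -0.19 and -0.22. The 6 genes were selected on these values, so their calls are listed only as a limit: the count called between genotypes went from 6 to 3 without an expression minimum, to 3 with a minimum of 5 FPKM, where 3 were tested, and to 3 with eBayes without trend; it was 3 to 5 when 1 library was left out. With a pseudocount of 0.1, 2 of the 6 were called with anti-IgM. Of the region's other genes, flanks of 2 Mb gave 4 called between genotypes and 4 with anti-IgM (of 21 tested), while a pseudocount of 5 or a minimum of 5 FPKM gave 1 with anti-IgM. The count of listed partner and family genes called was 9 between genotypes and 12 with anti-IgM and stayed within 1.5 times of that. Of all calls between genotypes 40.2% were higher on deposited FPKM (400 higher, 594 lower) and 57.2% with median-of-ratios scaling (535 and 401); with anti-IgM 39.1% (812 and 1266) and 53.8% (1050 and 901).

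With the letter as a replicate block, 4 of the 6 genes, 2 of the neighbours and 8 of the listed genes were called between genotypes. Same-letter libraries did not deviate together by correlation (-0.12 to 0.044), and 0 of 4 wild-type libraries correlated best with their own letter. Of the knockout-labelled libraries only B did, with a correlation of 0.0445 to wild-type library B. Library B nevertheless had the highest sum of myeloid markers in each genotype, 169 and 129.8 FPKM. Whether libraries of a letter share something that affects some genes was not tested. The cause of the changes was not tested. Depth in reads is unknown, which limits Klrd1, Klri1 and the genes under 1 FPKM most.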
